A study of Mus musculus with 7 samples.

Results

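Regulatory T cells (Tregs) restrain inflammation through secreted and surface molecules, and 7 genes that encode such mediators are described here. They are Il10, Ebi3, Tgfb1, Areg, Fgl2, Entpd1 and Nt5e, taken by symbol from the 27998 genes listed in every library, and all 7 symbols were found. The libraries hold single-cell RNA from the central nervous system of mice with experimental autoimmune encephalomyelitis (EAE), a model of multiple sclerosis that was started with the myelin peptide MOG35-55 and sampled at peak disease. The mice were of B6 background and were either LAG3-deficient (Lag3KO, genotype label Lag3Floxed) or wild type (WT, genotype label Lag3wt). Every Lag3KO and WT group carried the same disease and was bead-enriched for CD4 or for CD45, the pan-leukocyte marker. There were 2 Lag3KO_CD4, 2 WT_CD4, 1 Lag3KO_CD45 and 2 WT_CD45 libraries. The labels name 5 mice per group. Which Cre was used, which exons were removed and which animals entered each library is not given there. The p-values therefore measure the spread between libraries, which may be technical, except where stated for Il10 below.

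The mediators act in different ways. Il10 encodes interleukin-10, a cytokine that dampens antigen-presenting cells, and Ebi3 encodes the subunit shared by interleukin-27 and, with Il12a, interleukin-35. Tgfb1 encodes transforming growth factor beta 1, which is made as a latent complex and has to be activated. Areg encodes amphiregulin, an epidermal growth factor receptor ligand of tissue-repair Tregs, and Fgl2 encodes fibrinogen-like protein 2, which exists as a secreted immunoregulator and as a membrane prothrombinase of macrophages. Entpd1 (CD39) and Nt5e (CD73) are ectoenzymes that degrade extracellular ATP stepwise to adenosine. Lag3 encodes an inhibitory receptor of T cells that binds MHC class II, and Ikzf2 encodes Helios, a transcription factor typical of thymus-derived Tregs.

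On GRCm38, with GENCODE vM21 positions, Il10 lies at chr1:131019845-131024974, Fgl2 at chr5:21372642-21378374, Areg at chr5:91139599-91148432 and Tgfb1 at chr7:25687002-25705077. Nt5e lies at chr9:88327197-88372092, Ebi3 at chr17:55952640-55957022 and Entpd1 at chr19:40612366-40741602. All 7 are on the plus strand. Promoter sequences from RefSeq (GRCm38.p6) were matched for 6 of the 7 members; Il10 had no entry. The stretches before the start sites of Ebi3, Areg and Fgl2 are shown, because Ebi3 and Areg differed most between Ikzf2-positive and Ikzf2-zero cells among the members tested there and Fgl2 differed between the sorts. They run 5′ to 3′ on the plus strand, and capitals mark motif matches. Ebi3 is shown at chr17:55952373-55952622, Areg at chr5:91139349-91139598 and Fgl2 at chr5:21372423-21372641.
Ebi3: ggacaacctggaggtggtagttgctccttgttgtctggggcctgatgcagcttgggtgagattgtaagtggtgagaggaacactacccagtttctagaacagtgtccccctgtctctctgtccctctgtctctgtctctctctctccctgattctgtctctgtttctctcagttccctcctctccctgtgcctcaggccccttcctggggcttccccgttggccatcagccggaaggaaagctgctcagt
Areg: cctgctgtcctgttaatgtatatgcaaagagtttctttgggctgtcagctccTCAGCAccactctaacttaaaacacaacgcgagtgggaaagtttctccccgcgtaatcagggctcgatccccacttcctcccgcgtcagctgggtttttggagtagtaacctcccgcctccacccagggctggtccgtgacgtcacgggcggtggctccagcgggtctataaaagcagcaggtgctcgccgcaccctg
Fgl2: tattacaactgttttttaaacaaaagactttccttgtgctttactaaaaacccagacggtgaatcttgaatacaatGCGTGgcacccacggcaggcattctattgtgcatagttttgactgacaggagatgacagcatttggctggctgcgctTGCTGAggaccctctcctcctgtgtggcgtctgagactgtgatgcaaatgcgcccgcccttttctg

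The letters searched on both strands of the 250 bases before each start were TGCTGA (Maf), TGANTCA (Batf and AP-1), TTANGTAA (Nfil3), GCGTG (Ahr) and TTCNNNGAA (Stat5). Among 32851 mouse promoters of that length, 16.1% held TGCTGA, 6.75% TGANTCA, 2.06% TTANGTAA, 28.2% GCGTG and 7.02% TTCNNNGAA. Areg held TGCTGA, read here as its reverse complement, 198 bases before the RefSeq start. Fgl2 held GCGTG 174, TGCTGA 97, TTCNNNGAA 36 and TGANTCA 16 bases before its RefSeq start, and the last pair lies beyond or across the end of the stretch shown. GCGTG also lay 138 bases before the start of Nt5e, 118 before Tgfb1 and 18 before the start of Entpd1 at 40612366, while Ebi3 held none of the 5 motifs. These matches describe letters in the window and were not tested as binding sites.

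The libraries held 1428 to 2033 barcodes and 4585251 to 5777728 UMIs (unique molecular identifiers, which count RNA molecules) after CD4 enrichment, and 2239 to 2517 barcodes and 16026033 to 18914420 UMIs after CD45 enrichment. Pairs of libraries shared 0 to 12 barcodes. Lag3 itself had 1 and 0 UMIs in the Lag3KO_CD4 libraries against 289 and 107 in the WT_CD4 libraries, and 2 in the Lag3KO_CD45 library against 304 in WT_CD45 1 and 4 in the other. The library labelled WT_CD45 2 thus stood with the Lag3KO libraries, against its label, so the members' differences and the CD45 means are also given without it. Where 2 values are given for WT_CD45 below, the last is that of the library labelled WT_CD45 2. The sorts also differed in depth and in the gene list deposited, and sort, sex, batch, depth and list cannot be told apart.

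Cells were gated on genes that are not members. Cd3 cells had at least 2 UMIs of Cd3d, Cd3e and Cd3g and little RNA of 19 myeloid genes, and they were called Ikzf2-positive with at least 1 Ikzf2 UMI. Of 13411 barcodes kept, 1738 were Ikzf2-positive Cd3 cells, 4497 were Ikzf2-zero Cd3 cells and 4013 were myeloid cells. A further 1264 barcodes held T cell and myeloid RNA together and were left out. The 14 measured Treg markers other than Ikzf2 summed to 3934 to 4996 CPM, the UMIs of a gene scaled to 1e6 UMIs of the class, in Ikzf2-positive cells of the CD4 libraries, against 1657 to 2301 CPM in Ikzf2-zero cells. In the CD45 libraries the same list gave 3772 to 4211 CPM in Ikzf2-positive cells and 1195 to 1604 CPM in Ikzf2-zero cells. Foxp3, the defining Treg factor, had only 7.75 to 9.06 CPM in Ikzf2-positive cells of the CD4 libraries. It had 4.03 CPM in the Lag3KO_CD45 library, 50.7 in WT_CD45 1 and, at the top, 141.3 in the library labelled WT_CD45 2. Ikzf2-positive cells are therefore called by their gate. Levels are sums over cells, in which fewer expressing cells and less RNA per cell cannot be told apart. They are compared between classes and libraries, not between genes, since 3′ tags are not scaled to length.

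Il10 was the member whose level depended most on the sort. In Ikzf2-positive cells it had 5.65 and 7.41 CPM in the Lag3KO_CD4 libraries and 4.98 and 0.663 CPM in the WT_CD4 libraries. The CD45 libraries gave 62.5 CPM (Lag3KO), 26.6 CPM (WT_CD45 1) and 100.9 CPM (the library labelled WT_CD45 2). All 3 CD45 values lay above all 4 CD4 values. Ikzf2-zero cells had 1.59 and 4.31 CPM in Lag3KO_CD4, 4.29 and 0.917 CPM in WT_CD4, 3.01 CPM in Lag3KO_CD45, and 5.19 and 5.60 CPM in the WT_CD45 libraries. Il10 was higher in Ikzf2-positive than in Ikzf2-zero cells in 6 of 7 libraries, with WT_CD4 2 the exception, and the ranges of the classes overlapped. In myeloid cells no Il10 UMI was found in the 4 CD4 libraries or in WT_CD45 1, and 4 UMIs were found in each of the other CD45 libraries.

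**Figure D1:**
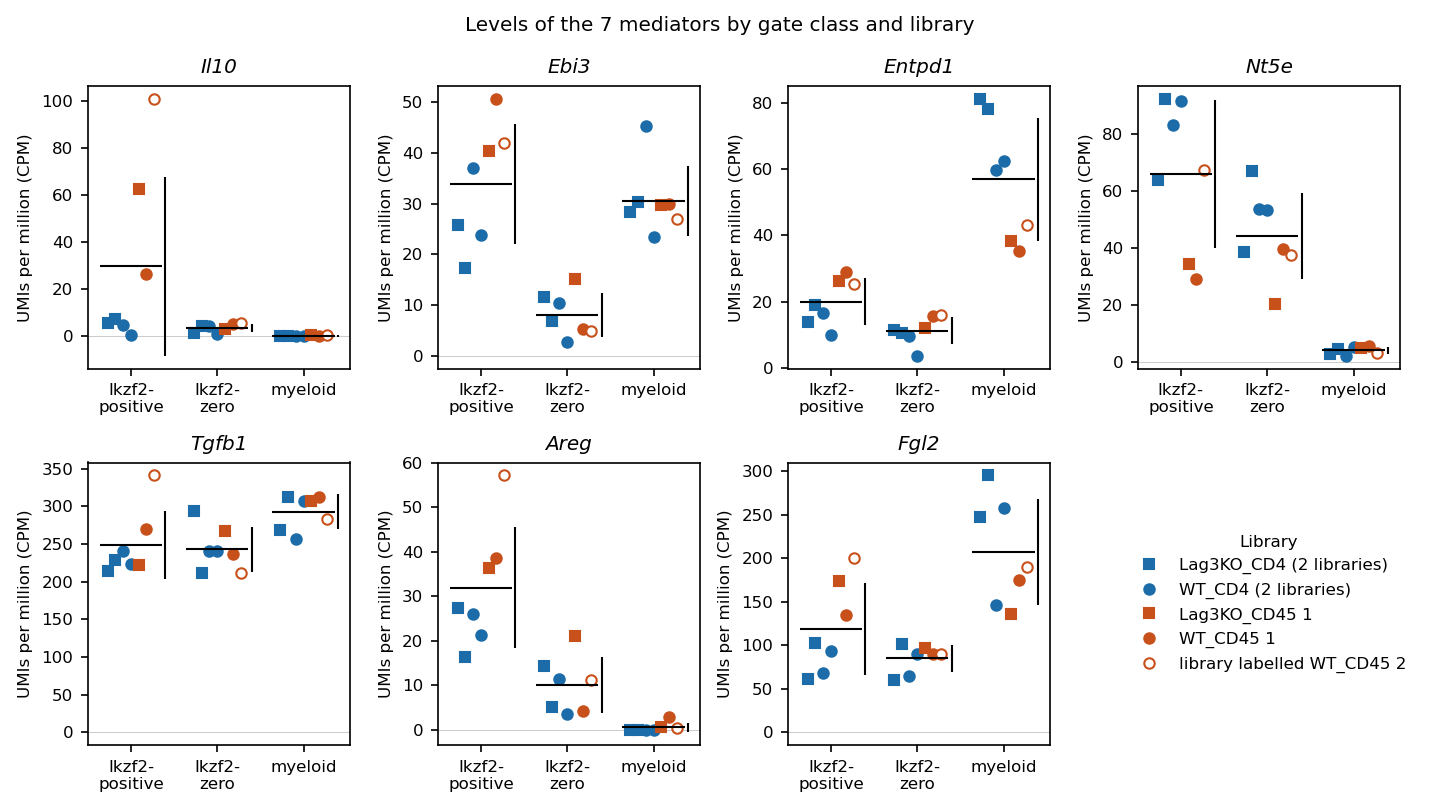
Levels of the 7 mediators in Ikzf2-positive Cd3, Ikzf2-zero Cd3 and myeloid cells, in CPM of the class, 1 point per library (squares Lag3KO, circles WT, blue CD4, orange CD45, open circle the library labelled WT_CD45 2; line mean, bar SD over 7 libraries). Ikzf2-positive Il10 in the CD45 libraries sits between 26.6 and 100.9 CPM, above every other Il10 value.

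The plot of levels by class shows each library beside its class mean. In these plots Areg, Il10 and Nt5e stood out by their near absence from myeloid cells, and Entpd1 by the opposite order.

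The usual filter on low counts removed Il10 from the comparison of all 7 libraries, because its level passed the filter's cutoff of 8.04 CPM in 3 Ikzf2-positive and 0 Ikzf2-zero sums. Without the filter, Il10 was 2.28 ± 0.26 (SE, log2) higher in Ikzf2-positive than in Ikzf2-zero cells, with an adjusted p of 7.09e-17 by edgeR's quasi-likelihood test. This fit called 8.9% of 16205 genes. The difference was 1.67 ± 0.31 without the library labelled WT_CD45 2 (adjusted p = 4.22e-06, edgeR). The difference was carried by the CD45 libraries. Within them Il10, fitted without the filter, was 3.67 ± 0.33 higher (adjusted p = 8.07e-26, edgeR, 3.2% of genes called), and 3.30 ± 0.47 without the library labelled WT_CD45 2 (adjusted p = 1.46e-09, edgeR, 1.44% called). With the filter the CD45 difference was 3.73 ± 0.34, but Il10 passed its cutoff of 12.8 CPM there in 3 Ikzf2-positive and 0 Ikzf2-zero sums. Within the CD4 libraries it was 0.61 ± 0.44 higher and was not called (adjusted p = 0.544, edgeR without a filter, 10.1% called). Pooled within the CD4 sort, Ikzf2-positive cells had 26 Il10 UMIs and Ikzf2-zero cells 30, at 4.51 and 2.92 CPM.

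The cells behind the Il10 signal were few. In the CD45 libraries, 11 of 99 Ikzf2-positive cells had an Il10 UMI in Lag3KO (11.1%, exact binomial 95% interval 5.68 to 19.01), 7 of 74 in WT_CD45 1 (9.46%, 3.89 to 18.5) and as many as 23 of 107 in the library labelled WT_CD45 2 (21.5%, 14.1 to 30.5). The CD4 libraries had 1 to 9 such cells each, or 0.268% to 2.74%. Of Ikzf2-zero cells, 0.260% to 0.991% had an Il10 UMI over the 7 libraries. Myeloid cells, which serve as a measure of free RNA, had 0.337%, 0% and 0.407% in the CD45 libraries. Median depth there was 3751 to 4087 UMIs in Ikzf2-positive, 3321 to 3472.5 in Ikzf2-zero and 5110.5 to 5959.5 in myeloid cells. After thinning every cell to 1000 UMIs, 2.78%, 3.70% and 4.88% of Ikzf2-positive cells had an Il10 UMI in the CD45 libraries in the same order, against 1.32%, 1.08% and 1.05% of Ikzf2-zero cells. At that depth only 36, 27 and 41 cells kept the Ikzf2-positive gate, and their intervals overlapped those of Ikzf2-zero cells. The intervals cover counting error only.

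Il10 and Ikzf2 RNA met in the same cells of the CD45 libraries. Of the Cd3 cells with an Il10 UMI, 11 of 13 had an Ikzf2 UMI in Lag3KO_CD45, 7 of 9 in WT_CD45 1 and then 23 of 25 in the library labelled WT_CD45 2. Of all Cd3 cells of these 3 libraries, 25.4% to 30.1% were Ikzf2-positive. In the CD4 libraries the counts were 6 of 10 and 9 of 20 in Lag3KO, and 7 of 16 and 1 of 3 in WT. Foxp3 was found in 17 of the 25 Il10 cells of the library labelled WT_CD45 2 and in at most 1 such cell of each other library. Barcodes with T cell and myeloid RNA together held a further 33.7%, 52.6% and 30.4% of the Il10 UMIs of the CD45 libraries, in the same order, so part of the signal lay outside the classes compared.

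Ebi3 was higher in Ikzf2-positive than in Ikzf2-zero cells in all 7 libraries, and the ranges of the classes did not overlap. Ikzf2-positive cells had 25.8 and 17.3 CPM in Lag3KO_CD4, 37.1 and 23.9 CPM in WT_CD4, 40.3 CPM in Lag3KO_CD45, and 50.7 and 42.0 CPM in WT_CD45. Ikzf2-zero cells had 11.49 and 6.83 CPM in Lag3KO_CD4, 10.4 and 2.75 CPM in WT_CD4, 15.1 CPM in Lag3KO_CD45, and 5.19 and 4.797 CPM in WT_CD45. The difference was 1.89 ± 0.22 (log2, adjusted p = 8.49e-06, edgeR). It stayed at 1.77 ± 0.22 without the library labelled WT_CD45 2 (adjusted p = 2.10e-05, edgeR). The UMIs were spread thinly, with at most 5 in any Ikzf2-positive cell.

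Areg followed the same order. Ikzf2-positive cells had 27.5 and 16.5 CPM in Lag3KO_CD4, 26.0 and 21.2 CPM in WT_CD4, 36.3 CPM in Lag3KO_CD45, and 38.6 and 57.2 CPM in WT_CD45. Ikzf2-zero cells had 14.3 and 5.03 CPM in Lag3KO_CD4, 11.4 and 3.67 CPM in WT_CD4, 21.1 CPM in Lag3KO_CD45, and 4.16 and 11.2 CPM in WT_CD45. Areg was higher in Ikzf2-positive cells of every library, although the ranges overlapped between libraries, and it differed by 1.53 ± 0.22 (adjusted p = 7.09e-05, edgeR). In the library labelled WT_CD45 2, 24 of the 34 Areg UMIs of Ikzf2-positive cells came from 1 cell. Without that library the difference was 1.40 ± 0.23 (adjusted p = 3.26e-04, edgeR).

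The ectoenzymes differed less between the Cd3 classes. Entpd1 in Ikzf2-positive cells had 13.7 and 18.9 CPM in Lag3KO_CD4, 16.6 and 9.95 CPM in WT_CD4, 26.2 CPM in Lag3KO_CD45, and 29.0 and 25.2 CPM in WT_CD45. In Ikzf2-zero cells it had 11.49 and 10.4 CPM in Lag3KO_CD4, 9.65 and 3.67 CPM in WT_CD4, 12.04 CPM in Lag3KO_CD45, and 15.6 and 16.0 CPM in WT_CD45. Entpd1 was higher in all 7 libraries, by 0.75 ± 0.17 (adjusted p = 0.00586, edgeR). Nt5e, which converts AMP to adenosine, had 63.8 and 92.3 CPM in Ikzf2-positive cells of Lag3KO_CD4, 83.0 and 91.6 CPM in WT_CD4, 34.3 CPM in Lag3KO_CD45, and 29.0 and 67.3 CPM in WT_CD45. Ikzf2-zero cells had 38.4 and 66.8 CPM in Lag3KO_CD4, 53.6 and 53.2 CPM in WT_CD4, 20.1 CPM in Lag3KO_CD45, and 39.5 and 37.6 CPM in WT_CD45. Nt5e was higher in Ikzf2-positive cells in 6 of 7 libraries, with WT_CD45 1 the exception, and by 0.57 ± 0.10 over all (adjusted p = 9.46e-04, edgeR). Without the library labelled WT_CD45 2, Entpd1 differed by 0.77 (adjusted p = 0.0116, edgeR) and Nt5e by 0.54 (adjusted p = 0.00207). Nt5e was not called after thinning to 1000 UMIs per cell (0.59, adjusted p = 0.101, edgeR).

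Tgfb1 and Fgl2 were not called between the Cd3 classes. Tgfb1 had 214.8 to 341.4 CPM in Ikzf2-positive cells and 211.0 to 294.5 CPM in Ikzf2-zero cells, was higher in Ikzf2-positive cells in 3 of 7 libraries, and differed by -0.04 ± 0.09 (adjusted p = 0.855, edgeR). Fgl2 had 60.6 and 102.1 CPM in Ikzf2-positive cells of Lag3KO_CD4, 67.5 and 92.9 CPM in WT_CD4, 173.4 CPM in Lag3KO_CD45, and 135.1 and 200.1 CPM in WT_CD45. Ikzf2-zero cells had 60.2 and 101.3 CPM in Lag3KO_CD4, 64.7 and 90.4 CPM in WT_CD4, 96.3 CPM in Lag3KO_CD45, and 90.4 and 90.3 CPM in WT_CD45. The paired values were nearly equal in the CD4 libraries and apart in the CD45 libraries. Over all libraries Fgl2 differed by 0.30 ± 0.12 (adjusted p = 0.114, edgeR), and it passed when Ikzf2-positive cells were held to at least 2 Ikzf2 UMIs (0.37, adjusted p = 0.0369, edgeR). Tgfb1 differed by -0.14 and Fgl2 by 0.16 without the library labelled WT_CD45 2, and neither was called.

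Of the members, Ebi3, Areg, Entpd1 and Nt5e were called higher in Ikzf2-positive than in Ikzf2-zero cells, in a comparison that called 14.7% of 7613 genes, 7.75% higher and 6.94% lower. The median difference over all genes tested was 0.00. Ebi3, Areg and Entpd1 passed the filter on low counts in all 7 Ikzf2-positive sums and in only 3, 4 and 6 Ikzf2-zero sums, so their count is a description. Within the CD4 libraries Ebi3 (1.68 ± 0.23), Areg (1.36 ± 0.23), Entpd1 (0.71 ± 0.24) and Nt5e (0.59 ± 0.09) were called, with adjusted p of 2.04e-05, 1.97e-04, 0.0480 and 1.15e-04 (edgeR, 14.6% of genes called). Within the CD45 libraries Ebi3 (2.38 ± 0.36, adjusted p = 5.15e-05), Areg (1.83 ± 0.34, adjusted p = 7.57e-04), Fgl2 (0.84 ± 0.14, adjusted p = 3.06e-04) and Il10, as given above, were called by edgeR (5.36% of genes called), while Entpd1 (0.82, adjusted p = 0.186) and Nt5e (0.43, adjusted p = 0.439) were not. Ebi3 and Areg passed the filter's cutoff of 12.8 CPM in all 3 Ikzf2-positive sums of the CD45 libraries but in only 1 Ikzf2-zero sum each. Their CD45 calls are therefore a description. Without the library labelled WT_CD45 2, Ebi3 (2.09), Areg (1.53) and Fgl2 (0.68) were called within the CD45 libraries at adjusted p of 1.10e-04, 0.0170 and 0.0118 (edgeR, 3.42% of genes called).

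**Figure D2:**
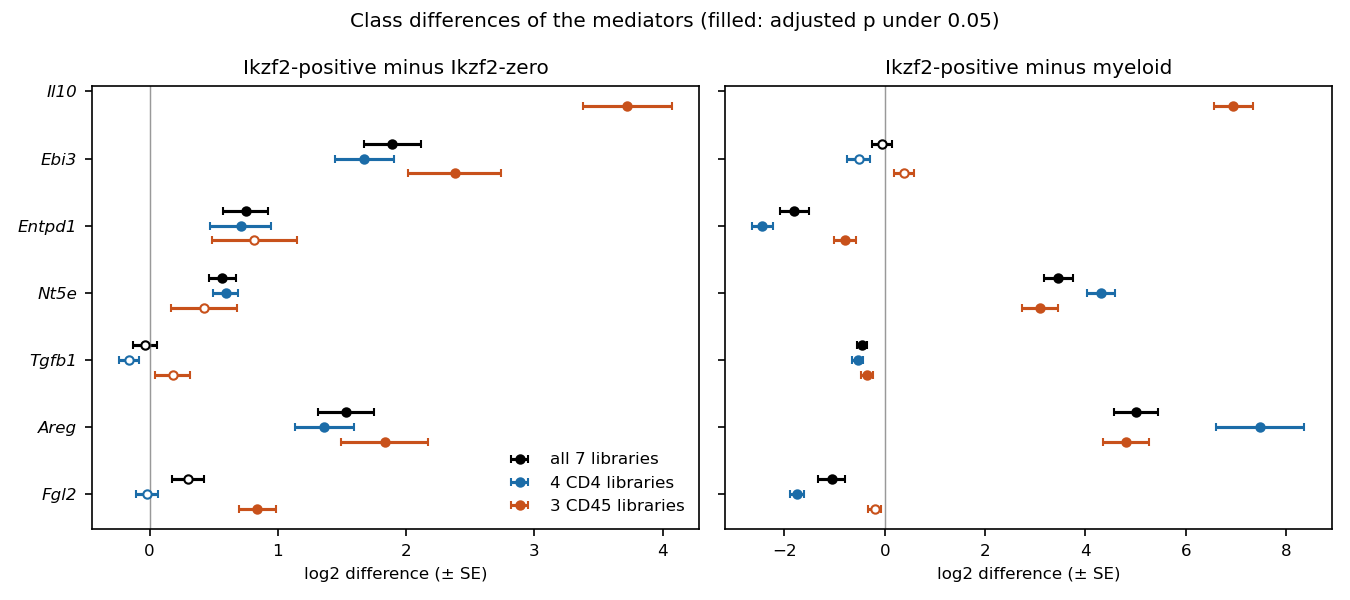
Differences of Ikzf2-positive cells from Ikzf2-zero cells and from myeloid cells, as log2 difference ± SE for each mediator, over all 7 libraries (black) and within the CD4 (blue) and CD45 (orange) libraries. Filled points have an edgeR adjusted p under 0.05; Ebi3 lies at 1.89 and Areg at 1.53 above Ikzf2-zero cells, while Areg and Nt5e lie at 5.01 and 3.46 above myeloid cells.

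The plot of differences by sort sets the fits over all libraries beside the fits within each sort. RNA of other cell types moved with the class. Of 8 markers listed for type 2 or monocyte-derived dendritic cells, none was at 0, and they summed to 1260 to 3112 CPM in Ikzf2-positive cells against 574.6 to 1357 CPM in Ikzf2-zero cells of the CD4 libraries. In the CD45 libraries that list gave 5134 to 6528 CPM in Ikzf2-positive and 3436 to 4466 CPM in Ikzf2-zero cells, most of it Cd74 and H2-Ab1. All 8 were higher in pooled Ikzf2-positive cells of the CD4 libraries, and 6 of the 8 in the CD45 libraries, where Flt3 (11.3 against 12.8 CPM) and Itgax (11.96 against 14.02 CPM) were lower. The lectin Cd209a had 35.0 CPM in pooled Ikzf2-positive and 12.6 CPM in pooled Ikzf2-zero cells of the CD4 libraries, and 45.2 against 19.9 CPM in the CD45 libraries. The 16 monocyte and macrophage markers, none at 0, summed to 416.3 to 827.8 CPM in Ikzf2-positive and 449 to 571 CPM in Ikzf2-zero cells of the CD4 libraries, and to 2823 to 3424 against 2593 to 3123 CPM in the CD45 libraries. These sums overlapped in the CD4 libraries, yet 13 of the 16 markers were higher in pooled Ikzf2-positive cells there, 9 of them at least 2-fold, such as Lyz2 (61.4 against 25.3 CPM) and Csf1r (9.89 against 3.21 CPM). The sums were dominated by Ccr2 (163.9 against 185 CPM) and Ly6c2 (151.6 against 224.4 CPM), which are also found in T cells and were lower. In the CD45 libraries 9 of the 16 were higher and none at least 2-fold. Of 7 migratory dendritic cell markers, 5 were higher in pooled Ikzf2-positive cells of the CD4 libraries. Ccl22 (22.9 against 4.28 CPM), Fscn1 (11.3 against 2.24 CPM) and Il4i1 (6.59 against 1.65 CPM) were at least 2-fold higher, while Ccl5 and Ccr7 were lower. In the CD45 libraries 6 of the 7 were higher, none at least 2-fold, and Ccl5 was lower.

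Neutrophil, NK cell and B cell RNA differed between libraries. The 8 neutrophil markers summed to 86.4 and 42.8 CPM in Ikzf2-positive cells of Lag3KO_CD4 and to 711.9 and 1116 CPM in those of WT_CD4, against 121.3 and 233.9 CPM in Ikzf2-zero cells of Lag3KO_CD4 and 128.4 and 73.8 CPM in those of WT_CD4. In the CD45 libraries they summed to 137.1 CPM (Lag3KO), 419.9 CPM (WT_CD45 1) and 65.6 CPM (the library labelled WT_CD45 2) in Ikzf2-positive cells, against 177.6, 342.8 and 124.7 CPM in Ikzf2-zero cells in the same order. None of these markers was at 0 except G0s2 in Ikzf2-zero cells of the CD4 libraries. The list was thus higher in Ikzf2-positive than in Ikzf2-zero cells in the 2 WT_CD4 libraries and in WT_CD45 1. The 8 NK markers summed to 277 and 392.9 CPM in Ikzf2-positive cells of Lag3KO_CD4 and 78.6 and 57.05 CPM in those of WT_CD4, against 137.1 to 173.6 CPM in Ikzf2-zero cells of the CD4 libraries. Most of that was the granzyme Gzma, and the defining NK genes Ncr1 and Klra8 were at 0 in both Cd3 classes there. In the CD45 libraries the NK list gave 127 CPM (Lag3KO), 832.6 CPM (WT_CD45 1) and 916.5 CPM (the library labelled WT_CD45 2) in Ikzf2-positive cells, against 693.4, 575.5 and 478.1 CPM in Ikzf2-zero cells. All 5 B cell markers measured were higher in pooled Ikzf2-positive cells of the CD45 libraries, 0 of them at least 2-fold. By library, in the same order, they summed to 419.4, 130.3 and 210.2 CPM in Ikzf2-positive cells. Ikzf2-zero cells had 271.9, 210.9 and 119.9 CPM. In the CD4 libraries 2 of the 5 were higher, with sums of 13.3 to 23.4 against 5.75 to 13.5 CPM.

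With the limit on myeloid RNA in Cd3 cells lowered from 150 to 75 per 10000 UMIs, Ebi3 differed by 2.00 ± 0.25, Areg by 1.61 ± 0.21, Entpd1 by 0.83 ± 0.20 and Nt5e by 0.60 ± 0.10, all called by edgeR (adjusted p of 9.89e-06 to 0.00680). The part of dendritic cell, monocyte, neutrophil, NK cell and B cell RNA in the differences was not tested.

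Against myeloid cells, the mediators split into those of T cells and those of both. Areg had 16.5 to 57.2 CPM in Ikzf2-positive cells and 0 UMIs in myeloid cells of the 4 CD4 libraries. Myeloid cells of the CD45 libraries had 0.704 CPM in Lag3KO, and 2.95 and 0.326 CPM in WT. Pooled over the CD4 libraries, Areg was at least 17.96-fold higher in Ikzf2-positive than in myeloid cells, taking 3 UMIs over the group as the floor, and Il10 at least 3.51-fold higher. In the pooled CD45 libraries Areg was 32.3-fold and Il10 175.3-fold higher. The Areg fold was 90.2 without WT_CD45 1, which held 22 of its 29 myeloid UMIs, and 20.1 without the library labelled WT_CD45 2, while the Il10 fold was 138.1 to 239.1 without 1 of the 3 libraries (168.0 without the library labelled WT_CD45 2). Areg differed by 5.01 ± 0.44 (adjusted p = 1.71e-06, edgeR) over all libraries. Il10, fitted without a filter on low counts, differed by 6.82 ± 0.43 (adjusted p = 5.46e-14, edgeR, 32% of 17026 genes called), and within the CD45 libraries by 6.86 ± 0.39 (25.5% called), or 6.88 ± 0.66 without the library labelled WT_CD45 2 (20.5% called).

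Nt5e had 29.0 to 92.3 CPM in Ikzf2-positive cells and 2.06 to 5.50 CPM in myeloid cells, and differed by 3.46 ± 0.29 (adjusted p = 1.14e-06, edgeR). Its partner enzyme had the reverse order. Entpd1 had 9.95 to 29.0 CPM in Ikzf2-positive cells, against 81.2 and 78.2 CPM in myeloid cells of Lag3KO_CD4, 59.7 and 62.6 CPM of WT_CD4, 38.3 CPM of Lag3KO_CD45, and 35.1 and 43.0 CPM of WT_CD45. It was lower in Ikzf2-positive cells in all 7 libraries, with no overlap, by -1.80 ± 0.28 (adjusted p = 2.20e-04, edgeR). Within the CD4 libraries the difference was -2.44 (adjusted p = 5.74e-08, edgeR, 52.5% of genes called), and within the CD45 libraries it was -0.79 (adjusted p = 0.00747, edgeR, 40% called). The CD45 value became -0.65 and was not called without the library labelled WT_CD45 2 (adjusted p = 0.0962, edgeR). The myeloid cells differed in make-up between the sorts. Their microglia markers summed to 3964 to 5957 CPM in the CD4 and 553.8 to 908.3 CPM in the CD45 libraries. Their neutrophil markers gave 17950 to 37990 CPM and 2148 to 7780 CPM. The part of this in the Entpd1 values of each sort was not tested.

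Fgl2, known in macrophages as a prothrombinase, fell by 1.06 ± 0.27 on the log2 scale in Ikzf2-positive relative to myeloid cells (adjusted p = 0.00526, edgeR). Myeloid cells had 247.5 and 295.3 CPM in Lag3KO_CD4, 146.2 and 258.1 CPM in WT_CD4, 135.8 CPM in Lag3KO_CD45, and 175.2 and 189.9 CPM in WT_CD45. Within the CD4 libraries the difference was -1.75 (adjusted p = 4.60e-08, edgeR, 52.5% of genes called). Within the CD45 libraries it was -0.20 (adjusted p = 0.251, edgeR, 40% called), or -0.37 without the Lag3KO library (adjusted p = 0.0310, edgeR). The myeloid cells compared differed in make-up between the sorts, as given above, and the part of this was not tested. Tgfb1 was lower in Ikzf2-positive cells by -0.45 ± 0.10 (adjusted p = 0.00313, edgeR), with 257.4 to 313.2 CPM in myeloid cells. Ebi3 had 23.5 to 45.3 CPM in myeloid cells, within reach of its 17.3 to 50.7 CPM in Ikzf2-positive cells, and differed by -0.05 ± 0.20 (adjusted p = 0.836, edgeR), or by -0.17 without the library labelled WT_CD45 2. In all, edgeR called Areg and Nt5e higher and Entpd1, Fgl2 and Tgfb1 lower, where 54% of 7194 genes were called, 26.5% higher and 27.6% lower. Areg and Nt5e passed the filter's cutoff of 10.05 CPM in all 7 Ikzf2-positive and in 0 myeloid sums, so their calls are a description. All 5 calls held without the library labelled WT_CD45 2, with differences of 4.47 for Areg, 3.20 for Nt5e, -1.95 for Entpd1, -1.24 for Fgl2 and -0.54 for Tgfb1. DESeq2 called 49.8% of genes in this comparison, and edgeR called 49.9% of those tested when cells were thinned to 1000 UMIs, with 2 members among them.

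The difference between the Cd3 classes differed between the sorts for Il10 and Fgl2, in a test whose calls depended on single libraries. It was lower in the CD4 than in the CD45 libraries by -3.36 ± 0.61 (log2) for Il10 (adjusted p = 0.00550, edgeR interaction) and by -0.84 ± 0.16 for Fgl2 (adjusted p = 0.0102). This test called 0.632% of 9500 genes. Il10 passed the filter on low counts there through the 3 Ikzf2-positive sums of the CD45 libraries and no other. Ikzf2-positive Il10 averaged 4.68 ± 2.87 CPM in the CD4 libraries and 63.3 ± 37.2 CPM in the CD45 libraries (SD, n = 4 and n = 3), against 2.78 ± 1.78 and 4.60 ± 1.39 CPM in Ikzf2-zero cells. The CD45 mean in Ikzf2-positive cells was 44.5 CPM without the library labelled WT_CD45 2. Without the Lag3KO_CD45 library the values were -3.45 for Il10 (adjusted p = 0.0861, edgeR) and -0.86 for Fgl2 (adjusted p = 0.0898). Without the library labelled WT_CD45 2 they were -2.72 (adjusted p = 0.103, edgeR) and -0.70 (adjusted p = 0.122). Neither was then called. Fgl2 was also not called by DESeq2 (adjusted p = 0.403) or after thinning to 1000 UMIs per cell (adjusted p = 0.718, edgeR). The other members gave adjusted p of 0.659 to 0.994. Among genes listed with the mediators, Maf, a transcription factor of Il10 in T cells, and Icos, a costimulatory receptor, moved with Il10 (-0.71 ± 0.15, adjusted p = 0.0147, and -0.63 ± 0.11, adjusted p = 0.00281, edgeR). Furin, a convertase that processes TGF-beta, went the other way (0.74 ± 0.17, adjusted p = 0.0377, edgeR).

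**Figure D3:**
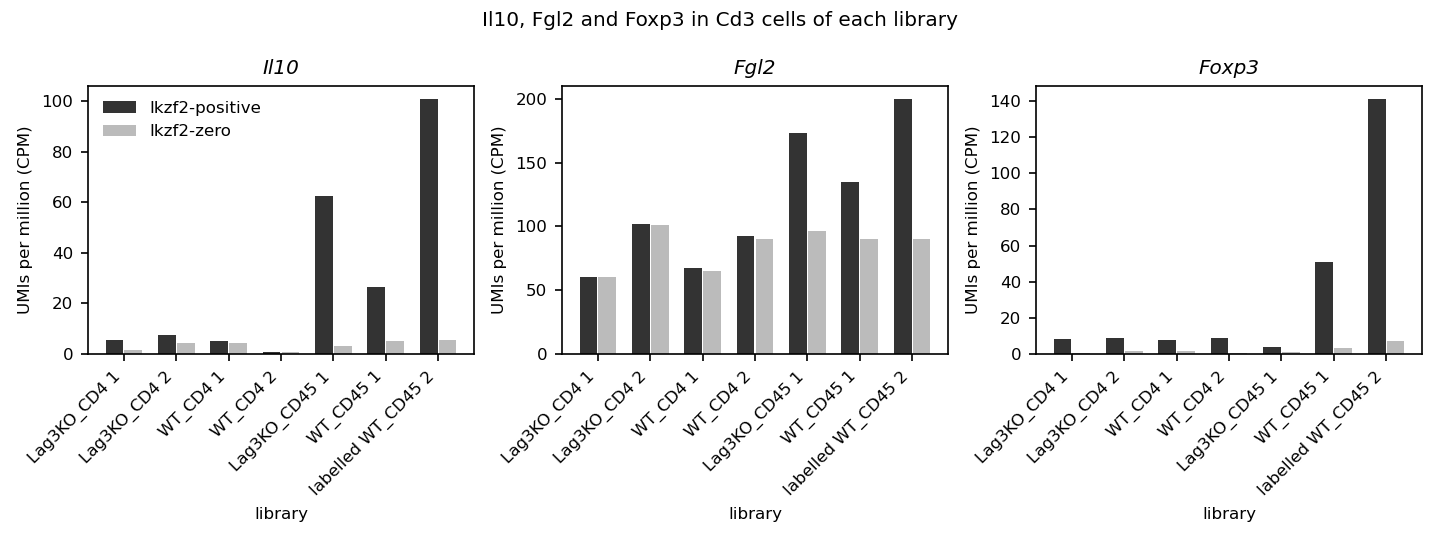
Il10, Fgl2 and Foxp3 in Ikzf2-positive and Ikzf2-zero Cd3 cells of each library, in CPM. Ikzf2-positive Il10 is 0.663 to 7.41 CPM in the CD4 libraries and 26.6 to 100.9 CPM in the CD45 libraries; Foxp3 is highest, at 141.3 CPM, in the library labelled WT_CD45 2.

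The plot of Il10, Fgl2 and Foxp3 by library shows that Il10 and Foxp3 do not rank the CD45 libraries alike. The Lag3KO_CD45 library had 62.5 CPM of Il10 with 4.03 CPM of Foxp3 in Ikzf2-positive cells. WT_CD45 1 had 26.6 CPM of Il10 with 50.7 CPM of Foxp3. The summed Treg list, at 3934 to 4996 CPM in the CD4 and 3772 to 4211 CPM in the CD45 libraries, overlapped between the sorts in this class. The monocyte and macrophage list and the dendritic cell list were higher in the CD45 libraries, as given above, and depth per cell was 2775 to 3764 UMIs in CD4 and 3751 to 4087 UMIs in CD45. Their part in the difference between sorts was not tested.

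Clusters placed the mediators on finer cell types. Cells were clustered within each sort without the members, and clusters were named from marker lists. All genes of these cells were used by the clustering, directly or not, so cluster levels are given without a test. A Treg-like cluster held 1247 cells of the CD4 and 211 cells of the CD45 libraries. There Il10 averaged 6.67 ± 3.92 CPM in the CD4 libraries (SD, n = 4) and 77.0 ± 33.9 CPM in the CD45 libraries (SD, n = 3). Among the other named clusters of the CD45 libraries, B-like cells came next, at 9.58 ± 10.2 CPM, and the remainder lay between 0 and 3.99 CPM. Areg too was highest among named clusters in Treg-like cells, at 31.1 ± 9.01 CPM in CD4 and 46.9 ± 9.87 CPM in CD45. The CD45 means without the library labelled WT_CD45 2 were 60.5 CPM of Il10 and 42.8 CPM of Areg in Treg-like cells and 14.4 CPM of Il10 in B-like cells. An unnamed CD4 cluster led by Ccl1, Il2 and Csf2 had 31.4 ± 19.7 CPM of Areg. Another, led by Cd163l1, Blk and Il17a, had 25.8 ± 29.9 CPM.

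Ebi3 had further sources. Treg-like cells had 32.9 ± 12.01 CPM in CD4 and 42.6 ± 12.9 CPM in CD45 libraries, while migratory dendritic-like cells of the CD45 libraries had 85.1 ± 5.45 CPM and neutrophil-like cells of the CD4 libraries 88.7 ± 32.0 CPM. The neutrophil-like value rests on 33 UMIs. Leaving out the library labelled WT_CD45 2 gave CD45 means of 46.7 CPM in Treg-like and 87.5 CPM in migratory dendritic-like cells. Entpd1 had 15.1 ± 4.84 and 28.1 ± 5.64 CPM in Treg-like cells of the CD4 and CD45 libraries. Among named clusters it was highest in microglia-like cells, a known site of CD39, with 108.7 ± 14.2 CPM in CD4 and 66.6 ± 21.7 CPM in CD45 libraries. Nt5e in Treg-like cells had 109.1 ± 15.8 CPM in CD4 and 53.4 ± 17.2 CPM in CD45 libraries, the highest named cluster in each, and 0 UMIs in microglia-like and neutrophil-like cells of the CD4 libraries. Entpd1 averaged, without the library labelled WT_CD45 2, 54.1 CPM in microglia-like cells and 29.2 CPM in Treg-like cells of the CD45 libraries, and Nt5e 44.03 CPM in Treg-like cells. Unnamed CD45 clusters then had more Entpd1 than microglia-like cells. They were led by Ace, Ear2 and Cxcl3 (67.1 CPM) and by Cxcl10, Rsad2 and Ifit1 (59.8 CPM).

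Tgfb1 was spread over every cluster. Treg-like cells had 219.9 ± 9.01 CPM in CD4 and 307.2 ± 42.7 CPM in CD45 libraries. Monocyte- or macrophage-like cells of the CD4 libraries had 392.7 ± 60.6 CPM, and migratory dendritic-like cells of the CD45 libraries had the lowest level there, 97.5 ± 9.85 CPM. Fgl2 in Treg-like cells had 76.9 ± 23.9 CPM in CD4 and 128.4 ± 39.1 CPM in CD45 libraries. Its highest cluster in the CD45 libraries was unnamed and led by the interferon-induced genes Cxcl10, Rsad2 and Ifit1, at 359.1 ± 146.4 CPM, with type 1 dendritic-like cells at 321.0 ± 38.2 CPM. The lowest Fgl2 level in the CD45 libraries was in plasmacytoid dendritic-like cells, at 11.7 ± 8.06 CPM. Without the library labelled WT_CD45 2, type 1 dendritic-like cells were highest, at 330.0 CPM, the interferon-led cluster had 279.5 CPM, plasmacytoid dendritic-like cells 7.84 CPM and Treg-like cells 109.3 CPM of Fgl2. Tgfb1 then averaged 297.7 CPM in Treg-like and 92.8 CPM in migratory dendritic-like cells.

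**Figure D4:**
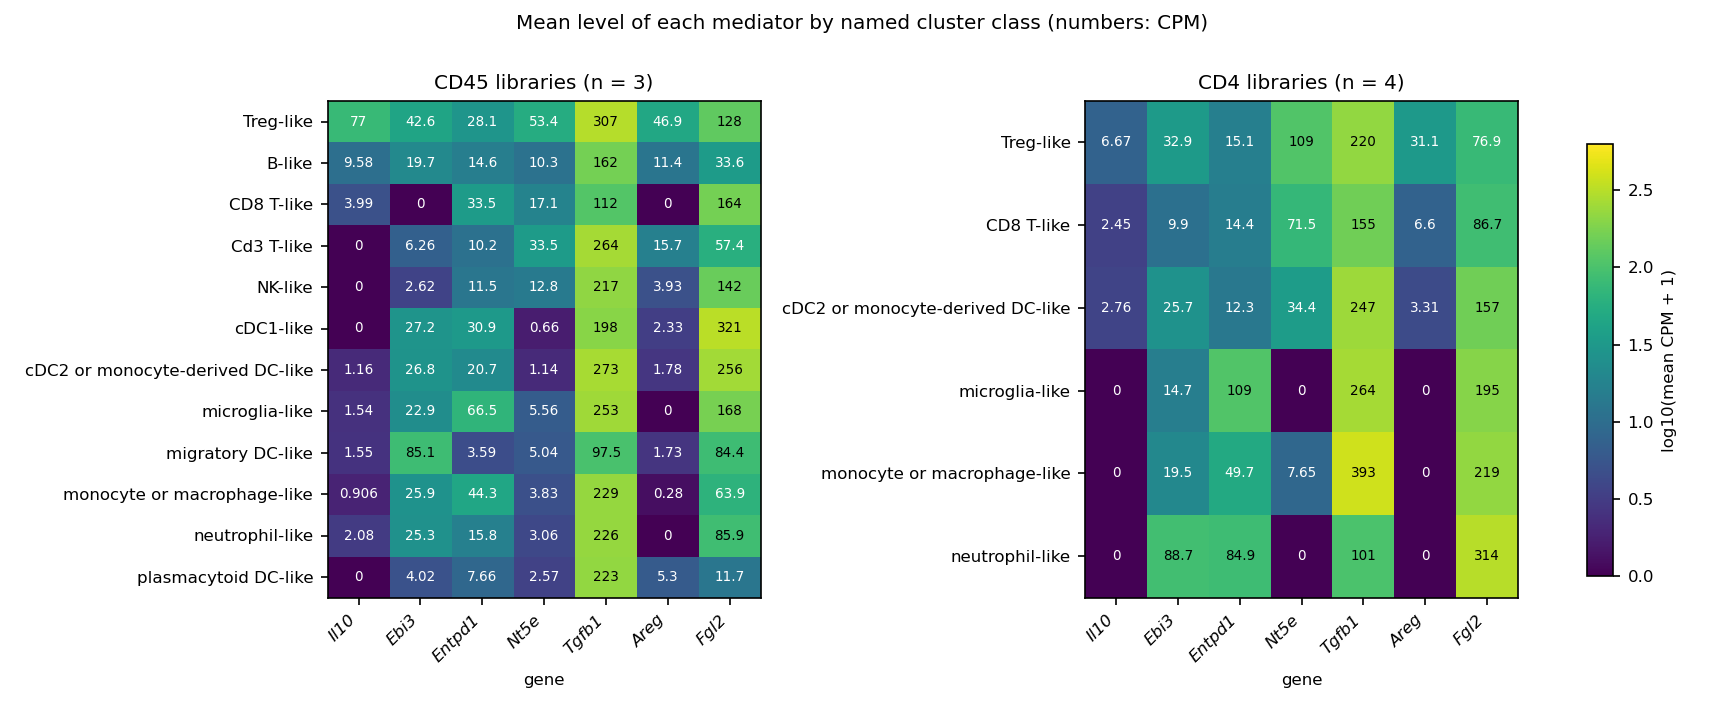
Mean level of each mediator in the named clusters of each sort, in CPM (numbers) with colour on a log10 scale of CPM + 1. Il10 and Areg are highest in the Treg-like row, with Il10 at 77.0 CPM in the CD45 libraries, while Entpd1 is highest in microglia-like cells.

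The map of cluster levels shows Treg-like cells beside the other named clusters. Across all clusters and libraries with enough cells (59 points over 7228 genes, which share libraries and depth), the genes most like each member were found by Pearson's r of log levels. Il10 was most like Il2ra (r = 0.62), Odc1 (0.57) and Tnfrsf4 (0.57). Areg was most like Tnfsf11 (0.68), Sdf4 (0.66) and Tnfrsf18 (0.66), and Nt5e like Bcl11b (0.81), Tox (0.80) and Camk4 (0.80). Fgl2 was most like Xaf1 (0.72), Zbp1 (0.68) and Fam49b (0.68), and Entpd1 like Vsir (0.68), Hcar2 (0.67) and Ctsd (0.66). Ebi3 was most like Gdap10 (0.68), Rassf3 (0.68) and Nuak2 (0.67), and Tgfb1 like Ehd4 (0.71), Ece2 (0.71) and Galk1 (0.70).

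Mediators were also counted per cell. UMIs of at least 3 of the 7 genes were found in 8.47% to 37.4% of Ikzf2-positive cells, 1.82% to 6.02% of Ikzf2-zero cells and 3.73% to 19.3% of myeloid cells over the libraries. Between 13.1% and 34.5% of Ikzf2-positive cells had none. Such shares depend on depth, which differed between the classes, and were not compared by a test. Median depth in the CD4 libraries was 2775 to 3764 UMIs in Ikzf2-positive, 1991.5 to 2404 in Ikzf2-zero and 2568 to 3091 in myeloid cells. That of the CD45 libraries is given above.

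The genes around each mediator were counted from lists of receptors, regulators and processing factors. The IL-10 family and its receptors had 8 of 11 genes tested between Ikzf2-positive and Ikzf2-zero cells, with 3 called higher, 1 lower and a median difference of 0.25. Il10ra, the ligand-binding receptor chain, rose by 1.05 ± 0.16 (adjusted p = 1.46e-04, edgeR), and Il22, a cytokine of the same family, fell by 2.15 ± 0.46 (adjusted p = 0.00334). Of 9 transcription factors listed for Il10, all were tested, 6 were higher and 1 lower, with a median of 0.43. Maf was higher by 0.63 ± 0.11 (adjusted p = 7.88e-04, edgeR) and Nfil3 by 0.65 ± 0.13 (adjusted p = 0.00203). Id2, an inhibitor of E proteins, fell by 0.82 ± 0.06 (adjusted p = 1.74e-08, edgeR). DESeq2 called 2 higher and 1 lower in each of these lists, and the same numbers in the TGF-beta list below.

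Receptors and partners of Ebi3 had 4 of 8 genes tested, 1 higher and 1 lower, and a median of 0.18. Il6st, the shared signalling chain gp130, rose by 0.94 ± 0.17 (adjusted p = 8.88e-04, edgeR), and Il12rb2, a receptor chain typical of Th1 cells, fell by 1.15 ± 0.23 (adjusted p = 0.00187). For TGF-beta, 12 of 20 genes were tested, 4 higher and 2 lower, with a median of 0.04. While Tgfb1 itself was not called, Lrrc32, which encodes GARP and holds latent TGF-beta on the Treg surface, rose by 2.97 ± 0.17 (adjusted p = 1.45e-09, edgeR). Itgav, the alpha V chain of integrins that activate it, rose by 1.27 ± 0.13 (adjusted p = 2.53e-06, edgeR). Furin fell by 0.89 ± 0.12 (adjusted p = 3.95e-05, edgeR). Lrrc32 is also in the Treg marker list.

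Extracellular ATP and adenosine genes had 8 of 16 tested, 2 higher and 2 lower, and a median of 0.18. Adk, an adenosine kinase, rose by 0.65 ± 0.12 (adjusted p = 0.00101, edgeR), and Slc29a1, a nucleoside transporter, fell by 0.42 ± 0.13 (adjusted p = 0.0322). DESeq2 called 2 higher and 0 lower in this list, without Slc29a1. The list around Areg had 7 of 15 tested, 2 higher and 2 lower, and a median of 0.07. Il1rl1, the IL-33 receptor ST2 known for inducing Areg in tissue Tregs, rose by 1.76 ± 0.16 (adjusted p = 4.97e-07, edgeR), and Gata3 by 0.69 ± 0.08 (adjusted p = 6.17e-06). Rhbdf2, which aids the shedding of amphiregulin, fell by 0.95 ± 0.24 (adjusted p = 0.00988, edgeR). The list around Fgl2 held Fgl1, Fcgr2b, Fcgr3 and Fcgr1. Of 3 genes tested in it, Fcgr1 alone was called (0.81 ± 0.25, adjusted p = 0.0341, edgeR), and DESeq2 called 0 of the 3. It is a myeloid gene and was 4.79 lower (log2 difference -4.79 ± 0.36) in Ikzf2-positive than in myeloid cells. Other suppressive genes of Tregs had 12 of 15 tested, 6 higher and 1 lower, and a median of 0.36, led by Tnfrsf9 (1.79 ± 0.11), Il2ra (1.66 ± 0.10) and Ctla4 (1.52 ± 0.10), with adjusted p of 2.90e-09, 2.90e-09 and 8.78e-09 (edgeR). Those 3 are also in the Treg marker list.

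Against myeloid cells, where 54% of all genes were called, the 3 lists given next were called in both directions. The IL-10 family list had 1 gene higher and 3 lower of 7 tested, with Il10ra at -1.15 ± 0.11 (adjusted p = 3.31e-06, edgeR), although it was higher than in Ikzf2-zero cells. In the TGF-beta list 4 were higher and 3 lower of 12 tested. Lrrc32 was 5.96 ± 0.51 higher (adjusted p = 1.48e-06, edgeR) and Nrros, which holds latent TGF-beta on myeloid cells, fell by 2.01 ± 0.15 (adjusted p = 5.42e-07). Il1rl1 was 6.08 ± 0.37 higher (adjusted p = 1.02e-07, edgeR) in the list around Areg, where 3 were higher and 3 lower of 6 tested.

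The genotype was the study's question, and no mediator was called between Lag3KO and WT in any class. In Ikzf2-positive cells edgeR called 4 of 9148 genes (0.0437%, with 0.0109% higher and 0.0328% lower) and 0 members. In Ikzf2-zero cells it called 0 of 10026 genes (0%), with 366 at an unadjusted p under 0.05 and 2 called by DESeq2. In myeloid cells it called 0 of 7702 genes (0%), with 391 at an unadjusted p under 0.05 and 0 called by DESeq2. Lag3 itself, with 0 UMIs in Ikzf2-positive cells of the 3 Lag3KO libraries against 46 and 23 in WT_CD4, 14 in WT_CD45 1 and again 0 in the library labelled WT_CD45 2, gave an adjusted p of 0.0877.

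In Ikzf2-positive cells the Lag3KO minus WT differences were 0.27 ± 0.47 for Il10, -0.39 ± 0.25 for Ebi3 and -0.21 ± 0.25 for Areg (log2 ± SE). They were 0.18 ± 0.28 for Entpd1, -0.23 ± 0.21 for Nt5e, -0.20 ± 0.13 for Tgfb1 and 0.03 ± 0.19 for Fgl2. Every adjusted p was 1.00 (edgeR). The Il10 value depended on the library labelled WT_CD45 2, without which it was 1.16 ± 0.45 (adjusted p = 1.00, edgeR). Without that library the others were -0.45 for Ebi3, -0.10 for Areg, 0.17 for Entpd1, -0.10 for Nt5e, -0.12 for Tgfb1 and 0.12 for Fgl2, all with an adjusted p of 1.00. The neutrophil and NK lists given above moved with the genotype in Ikzf2-positive cells of the CD4 libraries, and their part was not tested. Within the CD4 libraries Il10 differed by 1.11 ± 0.85 and within the CD45 libraries by -0.11 ± 0.58, and no mediator was called within either sort. The within-sort fits of the CD4 libraries called 0.142% of genes in Ikzf2-positive, 0.0399% in Ikzf2-zero and 0.0519% in myeloid cells. Those of the CD45 libraries called 0.0109%, 0% and 0% in the same classes.

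In Ikzf2-zero cells Ebi3 differed by 0.76 ± 0.44 and Areg by 0.66 ± 0.48, opposite in sign to Ikzf2-positive cells, and the other members by -0.23 to 0.31. In myeloid cells the 4 members tested lay between -0.08 and 0.09. Ebi3 differed by 0.65 and Areg by 0.71 in Ikzf2-zero cells without the library labelled WT_CD45 2, the other members by -0.20 to 0.38, and those of myeloid cells by -0.16 to 0.21. Whether the genotype changed the step between the Cd3 classes was tested as an interaction, which called 3 of 9500 genes (0.0316%) and 0 members. Ebi3 gave -1.18 ± 0.37 with an unadjusted p of 0.00393 and Areg -0.85 ± 0.39 with an unadjusted p of 0.0412, and both had an adjusted p of 1.00 (edgeR across all genes). These values moved with single libraries. Ebi3 was -1.80 without WT_CD4 1 and Areg -1.56, Areg was -0.39 without Lag3KO_CD45 1, and without the library labelled WT_CD45 2 they were -1.12 and -0.78. After thinning to 1000 UMIs per cell Ebi3 was -0.21 and Areg -2.12. The ratio of Ebi3 in Ikzf2-positive to Ikzf2-zero cells was 2.25 and 2.53 in Lag3KO_CD4 and 2.68 in Lag3KO_CD45, against 3.58 and 8.68 in WT_CD4, 9.76 in WT_CD45 1 and also 8.77 in the library labelled WT_CD45 2. These ratios do not overlap between the genotypes as labelled, but the WT values rest on 5 to 29 Ebi3 UMIs in Ikzf2-zero cells. The library labelled WT_CD45 2 had Lag3 at the Lag3KO level. Counted with Lag3KO, its 8.77 would lie above the 3.58 of WT_CD4 1, and the ratios would overlap. The share of all genes with ratios that do not overlap was not counted.

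**Figure D5:**
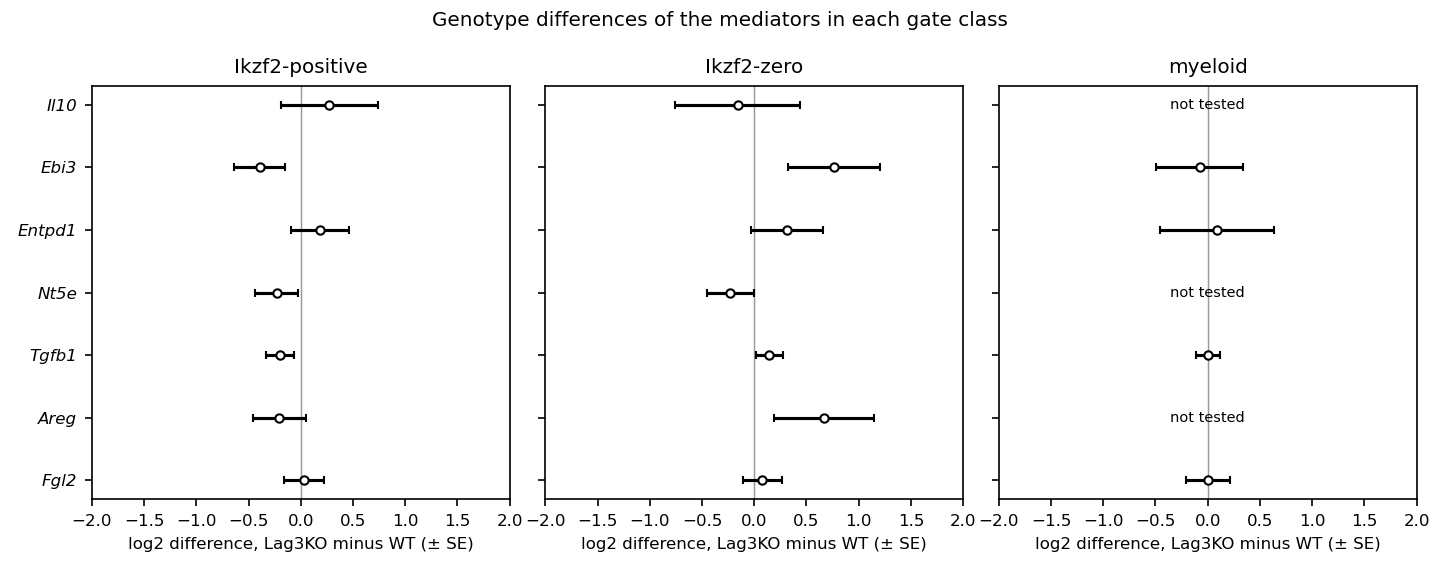
Lag3KO minus WT differences of each mediator in Ikzf2-positive, Ikzf2-zero and myeloid cells, as log2 difference ± SE. Open points mark values with an edgeR adjusted p of 0.05 or more, which is every value; Ikzf2-positive Il10 lies at 0.27 ± 0.47.

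The plot of genotype differences shows error bars that cross 0 or end near it in each class. With 3 Lag3KO and 4 WT libraries, of which the library labelled WT_CD45 2 had Lag3 at the Lag3KO level, differences of the size of these errors were not detectable.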

How the data were processed

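Single-cell 3′ v2 libraries were made with 10x Genomics reagents, per the labels' protocols. The authors deposited UMI counts per gene and barcode as matrices; Cell Ranger and Seurat, and the build GRCm38, are named in the submitters' processing notes, and the file headers of the CD4 libraries name Cell Ranger 3.0.2. From these counts, barcodes with at least 200 genes and at most 10% mitochondrial UMIs were kept, and doublet-like barcodes (scrublet score, 0.8% per 1000 barcodes) were removed. Cd3 cells had at least 2 Cd3 UMIs, at least 5 per 10000 UMIs, and under 150 per 10000 UMIs of 19 myeloid genes; myeloid cells had at least 150 and no Cd3 UMI. Counts were summed per library and class. edgeR 4.0.16 (R 4.3.3) fitted quasi-likelihood models with TMM scaling and its filter on low counts, with the library as block between classes and the sort as a term between genotypes. Benjamini-Hochberg adjusted p under 0.05 over all genes tested was called, and each SE was derived from its p. DESeq2 1.42.0 and other gates, filters and scalings were alternatives. Scripts were tested on simulated counts. Clusters (2000 variable genes without the members, 30 components, resolution 1.0) were named by a rule set after the clusters were seen: at least 3 markers up and 2 among the top 10 genes. Members and gene lists were chosen with earlier results of these data known. Named genes are the members, up to 4 genes of a list among those with the smallest adjusted p in each comparison, and the 3 genes most like each member.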

Additional observations from a re-analysis of the deposited data

Results flagged for a closer look

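The difference of Ikzf2-positive from Ikzf2-zero Cd3 cells differed between the sorts for Il10, by -3.36 (log2, CD4 minus CD45, edgeR interaction, adjusted p = 0.00550). The test called 60 of 9500 genes. Il10 passed its filter on low counts only through the 3 Ikzf2-positive sums of the CD45 libraries, so its call is a description. Ikzf2-positive Il10 was lower in all 4 CD4 libraries than in any of the 3 CD45 libraries. The same test gave -0.84 for Fgl2 (adjusted p = 0.0102, edgeR), whose difference between the classes was -0.02 ± 0.09 within the CD4 libraries and 0.84 ± 0.14 within the CD45 libraries. Neither was called without Lag3KO_CD45 1 or without the library labelled WT_CD45 2. DESeq2 gave -0.85 for Fgl2 with an adjusted p of 0.403.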

How the results depend on the processing

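Between genotypes no paired analysis was possible because the labels give no replicate numbers shared by groups; the class comparisons pair the classes within each library. Gene calls between Ikzf2-positive and Ikzf2-zero cells (1118) became 612 with DESeq2, 288 with cells thinned to 1000 UMIs and 608 without the library block, and calls against myeloid cells (3886) became 1038 when thinned. Thinning left 0 members called in the first (of 4), since only Nt5e, Tgfb1 and Fgl2 passed the filter on low counts, and 2 in the second (of 5). Genotype calls in Ikzf2-positive cells (4) became 0 with DESeq2, with at least 2 Ikzf2 UMIs, with a myeloid limit of 75 and without the sort term, 55 without a filter, 1 when thinned and 0 to 14 without a library. In Ikzf2-zero cells (0) they became 2 with DESeq2, 78 without a filter, 5 when thinned and 0 to 3 without a library, and in myeloid cells (0) 112, 2 and 0 to 14 without a filter, when thinned and without a library. The genotype interaction (3) gave 0 with DESeq2, 34 without a filter, 6 when thinned, 7 with at least 2 Ikzf2 UMIs, 0 with the limit of 75, 5 with doublet-like barcodes kept and 4 to 15 without a library. The sort interaction (60) gave 16 with DESeq2, 141 without a filter, 10 when thinned and 38 to 91 without a library, with 0, 0 and 0 to 2 members called (of 2) with DESeq2, when thinned and without a library. At cluster resolution 0.6, Treg-like Tgfb1 in the CD4 libraries was 229.9 CPM, against 219.9.

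Between Cd3 classes 100 of 105 member values kept their direction and side of the threshold, and against myeloid cells 99 of 104. Reversed values, none of them called, were as follows. Tgfb1 between Cd3 classes reached 0.032 with at least 2 Ikzf2 UMIs, 0.0027 with the limit of 75 and -0.14 to 0.046 without a library. Ebi3 against myeloid cells reached 0.17 with at least 2 Ikzf2 UMIs, 0.033 without Cd8 cells, 0.23 with a myeloid minimum of 300 and -0.19 to 0.089 without a library. By genotype in Ikzf2-positive cells, Fgl2 reached -0.074 when thinned, -0.093 with the limit of 75, -0.16 without the sort term and -0.17 to 0.20 without a library; Entpd1 -0.019 to 0.36 without a library; Il10 -0.034 without Cd8 cells, -0.48 without the sort term and -0.063 to 1.16 without a library; Areg 0.19 with at least 2 Ikzf2 UMIs. In Ikzf2-zero cells, Il10 reached 0.15 with the limit of 75 and -0.61 to 0.12 without a library, Nt5e 0.14 and Tgfb1 -0.031 when thinned, Fgl2 -0.15 to 0.25 and Entpd1 -0.036 to 0.67 without a library. In myeloid cells, Fgl2 reached -0.069 when thinned and -0.23 to 0.41 without a library, Tgfb1 -0.079 with the minimum of 300, -0.033 without the sort term and -0.022 to 0.060 without a library, Ebi3 -0.31 to 0.077 without a library and Entpd1 -0.079 when thinned. In the genotype interaction, Nt5e reached 0.054 with DESeq2 and -0.13 to 0.13 without a library, Entpd1 -0.40 to 0.065 without a library, and Fgl2 0.0027 with a stricter cell filter and -0.11 to 0.046 without a library. In the sort interaction, Areg reached 0.69 when thinned, 0.014 with at least 2 Ikzf2 UMIs and -0.98 to 0.23 without a library, Nt5e -1.21, -0.016 and -0.14 to 0.51 under the same settings, Entpd1 -0.23 to 0.22 without a library and Tgfb1 0.38 when thinned. The cause was not tested. The fits of Il10 without a filter and within sorts, and the folds and means without a CD45 library, were chosen after seeing the data. Il10 in the CD4 libraries rests on few counts, with 26 UMIs over all their Ikzf2-positive cells (4.51 CPM). Pooled Ikzf2-positive cells of the CD45 libraries had 102 (67.8 CPM). Cells without Cd8 UMIs were defined by Cd8a and Cd8b1 alone.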
